A study of Bos taurus with 48 samples.

Results

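GZMA (ENSBTAG00000021958), TRAT1 (ENSBTAG00000000183), CCL4 (ENSBTAG00000025257), XCL2 (ENSBTAG00000009938) and IFNG (ENSBTAG00000012529) are 5 of the 25669 genes counted in blood leukocytes of beef calves, and are known from T cells and cytotoxic lymphocytes. They were chosen by measured values, since the study had listed each of them as changed in these same libraries. GZMA and TRAT1 were listed for control calves on d 7 against d 0 and for the d 7 contrast of weaned with control calves, and XCL2 for the d 1 contrast of the groups and for weaned calves on d 1 against d 0. CCL4 was listed for weaned calves on d 7 against d 0, and IFNG for that comparison and for control calves on d 7 against d 0. The lists are used only for which genes they hold, and every direction below was computed from the deposited counts. All values that rest on libraries of a comparison that chose the gene are a description, so a p is given only where neither group compared took part in the choice.

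The study sequenced leukocyte RNA of 12 male, uncastrated calves of the Simmental beef breed (Continental in the labels), born in spring and each suckled by its own dam, before and after they were brought indoors. All had been vaccinated against respiratory viruses before weaning, and the labels give their stage as calf, with no age. Indoors, 6 control calves kept the company of their dams, while 6 weaned calves lost theirs in a single step and lived among calves treated likewise. Each calf was bled on d 0, before housing, and on d 1, 2 and 7, which gives 48 libraries in 8 groups of 6. All groups therefore share housing after d 0, and only the weaned calves also lost the dam. The cells were total leukocytes left after lysis of red cells, so a level is a share of the RNA of all white cells. From the levels alone, fewer cells of a type and less RNA per cell cannot be told apart. The study also counted white cells in blood, and reported a lower lymphocyte percentage in weaned than in control calves on d 1. Those cell counts were not used here.

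Cytotoxic lymphocytes, which are natural killer cells and killer T cells, hold granules of proteases that enter and kill infected cells, and granzyme A, the product of GZMA, is among the most abundant of these. On activation such cells and helper T cells release interferon gamma, the product of IFNG, which arms macrophages and raises antigen presentation, and chemokines such as CCL4 and XCL2 that draw in other leukocytes. TRAT1 encodes a membrane adaptor that sits with the T cell receptor and helps to keep it at the cell surface.

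A library held between 1662995 and 4256011 counts, with a median of 3600161. Levels are CPM, the counts of a gene per 1000000 counts of its library after TMM scaling, and 3 counts, the floor used here, stood at 0.705 to 1.80 per 1000000 counts of a library before TMM scaling. Of the 5 genes, GZMA, TRAT1 and CCL4 were above 3 counts in all 48 libraries, with 2001, 5410 and 3346 counts in total. IFNG had 38 counts in all and XCL2 had 23. Each of GZMA, TRAT1 and CCL4 passed the filter of at least 10 counts in all 10 comparisons, IFNG passed it in 7, and XCL2 in 2. XCL2 passed only in the comparisons that hold the weaned calves on d 1, the group where it was highest. Lengths of the transcripts are not given, so levels are compared between groups and not between genes.

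The calf named on each library was checked with the 200 genes that differed most between calves on the other 3 days. In 44 of the 48 libraries the profile was nearest to that of the same calf on the other days. The library labelled calf 1758 on d 7 was nearest to calf 1770, with a correlation of 0.64 against 0.29 with its own calf. The library labelled calf 1770 on d 7 was nearest to calf 1758, with 0.46 against 0.18. Both are weaned calves on the same day, so their group is the same under either name. The library labelled weaned calf 1758 on d 0 correlated at 0.03 with its own calf and at 0.25 with control calf 1755. The library labelled control calf 1755 on d 2 correlated at -0.14 with its own calf and at 0.21 with weaned calf 1773. No label was altered, and log2 differences of GZMA, TRAT1 and CCL4 that rest on these 4 libraries are given with and without them.

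The label of T and cytotoxic lymphocyte genes could not be checked with markers. Only 643 genes carried a usable symbol, all of them through the study's lists of changed genes, so a marker with no symbol may still be among the genes counted. None of the 8 T cell markers looked for, CD3D, CD3E, CD3G, CD247, CD2, CD5, CD6 and CD28, had a symbol in the table. Of the 6 markers of natural killer and cytotoxic T cells, KLRD1 had a symbol, with 944 counts in 48 of 48 libraries.

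GZMA was highest before housing in the calves that stayed with their dams. In control calves on d 0 its lowest level was 11.3, its median 18.5 and its highest 30.5 CPM, with a mean of 19.3 ± 6.21 (SD, n = 6). On d 1 the control calves spanned 4.56 to 18.5 CPM, with a median of 10.6 and a mean of 10.6 ± 4.97 (SD, n = 6). On d 2 they spanned 6.71 to 29.6 CPM, with a median of 11.9 and a mean of 14.2 ± 8.60 (SD, n = 6). The control calves thus stood lower on d 1 and d 2 than on d 0 in the middle of the group, with ranges that overlapped. On d 7 they spanned 2.46 to 7.30 CPM, with a median of 4.96 and a mean of 4.88 ± 1.81 (SD, n = 6). The highest control calf on d 7 was below the lowest on d 0, and all 6 control calves were lower than their own d 0 level.

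The weaned calves were more widely spread in GZMA than the control calves on d 0, 1 and 7. On d 0 they spanned 4.11 to 25.2 CPM, with a median of 9.59 and a mean of 11.1 ± 7.90 (SD, n = 6). Without calf 1769 their SD on d 0 was 4.37 CPM (n = 5). That is below the 6.21 CPM of the control calves, which was 3.29 CPM without the highest control calf (n = 5). On d 1 they spanned 2.13 to 32.4 CPM, with a median of 9.54 and a mean of 12.9 ± 11.1 (SD, n = 6). On d 2 they spanned 3.44 to 21.7 CPM, with a median of 8.99 and a mean of 9.91 ± 6.35 (SD, n = 6). Calf 1769 was the highest weaned calf in GZMA on d 0, 1 and 2, and the 4 groups of weaned calves overlapped one another on these days and on d 7. On d 7 the weaned calves spanned 1.34 to 30.8 CPM, with a median of 6.29 and a mean of 9.80 ± 10.7 (SD, n = 6). The library labelled calf 1758 held 54.0% of the GZMA counts of the weaned calves on d 7, and without it the mean was 5.59 ± 3.41 CPM (SD, n = 5). Without the libraries labelled 1758 and 1770 the mean was 4.39 ± 2.44 CPM (SD, n = 4), so that the weaned and control calves on d 7 lay over the same range.

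**Figure D1:**
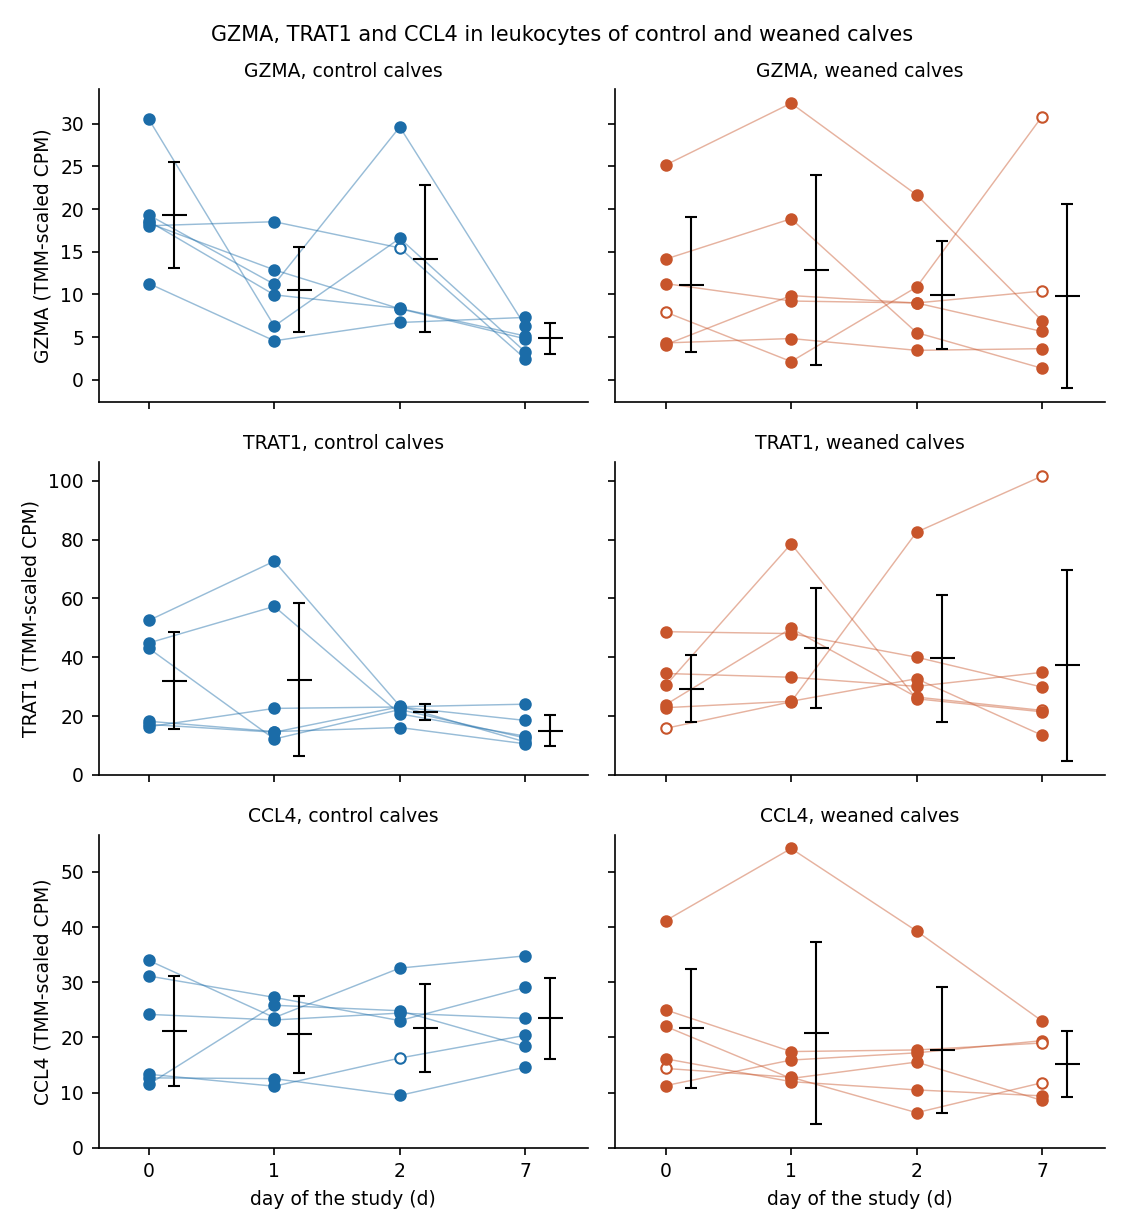
Level of GZMA, TRAT1 and CCL4 in TMM-scaled CPM (vertical axes, linear) on d 0, 1, 2 and 7 (horizontal axes) in 6 control and 6 weaned calves. Points are libraries, lines join the libraries of a calf, open points are the 4 libraries whose profile was nearest to another calf, and bars are the mean and SD. GZMA in control calves on d 7 lies below every control calf on d 0, and the highest weaned values of GZMA and TRAT1 on d 7, 30.8 and 102 CPM, are of the library labelled calf 1758.

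The lower level of GZMA in control calves on d 7 was a log2 change of -1.94 (SE 0.29) in the edgeR quasi-likelihood fit, a contrast that chose the gene and is described with no test. The fit called 453 genes lower there, which is 3.28% of the 13829 genes tested, and 1.57% had control calves that did not overlap on d 7 and d 0 in that direction. GZMA is in both sets and TRAT1 in the first, and nothing is read from that, since this contrast chose them. A call needed 2-fold or more between groups and, after Benjamini-Hochberg adjustment over all genes tested, a p under 0.05. In all, 515 genes were called in control calves on d 7 against d 0, which is 3.72% of those tested, 62 of them higher. Without calf 1755, 1759 or 1763, each left out alone, edgeR called 0 genes there, and without calf 1802 or 1803 it called 790 and 1086. In 1 fit of all 48 libraries it called 1 gene there, which was none of the 5. On d 7 the log2 difference of weaned from control calves in GZMA was 1.00 (SE 0.54), also a contrast that chose it. Without calf 1758 that difference was 0.19, and without the libraries labelled 1758 and 1770 on d 7 it was -0.17. These d 7 comparisons share the control libraries of d 7, so the low level of these 6 libraries enters both values. In weaned calves GZMA was also lower on d 7 than on d 0 in 4 of 6 as labelled, or in 3 of 6 with the d 7 labels 1758 and 1770 exchanged, with a log2 change of -0.21 (SE 0.60) that was -1.10 without calf 1758 and -1.44 without the libraries that resembled another calf. Without calf 1769 it was 0.31. Whether the changes of the groups to d 7 differ was not tested.

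Before any calf was housed or weaned, GZMA was lower in the calves to be weaned, by a mean difference of -0.93 in log2(CPM + 1) (SE 0.41), and by -0.89 without the library labelled calf 1758 on d 0. The control libraries of d 0 took part in the choice of GZMA, so this difference is given with no test. Weaned calves were lower in each of the 5 sequencing flowcells that held libraries of both groups on d 0, 1 of them with the library labelled calf 1758 and none with calf 1769. Calf 1769, with 25.2 CPM, stood among the control values and the other 5 weaned calves stood at or below 14.1 CPM, so the groups overlapped. Libraries of d 1 and d 2 did not choose GZMA and were tested with the exact two-sided permutation test. On d 1 the difference, weaned minus control, was -0.02 (SE 0.56, exact permutation p = 0.981, n = 6 and 6), while the edgeR fit gave 0.26 (SE 0.51), so the sign turned with the measure. On d 2 it was -0.49 (SE 0.45, exact permutation p = 0.299, n = 6 and 6), and -0.43 without the library labelled calf 1755 (exact permutation p = 0.398).

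Within weaned calves, whose d 0 libraries did not choose GZMA, the mean log2 change to d 1 was 0.03 (SE 0.36, exact permutation p = 0.906, n = 6). Without the library labelled calf 1758 on d 0 it was 0.34 (exact permutation p = 0.188, n = 5). The change to d 2 was -0.10 (SE 0.30, exact permutation p = 0.688, n = 6), and -0.20 without that library (exact permutation p = 0.5625, n = 5). With 6 calves the smallest p that this test can give is 0.03125, and neither change with n = 6 passed 0.05. With n = 5 the test cannot reach 0.05, so nothing is read from those p. Control calves are described with no test, because their d 0 libraries took part in the choice. GZMA was lower than on d 0 in 5 of 6 control calves on d 1, with a mean log2 change of -0.88 (SE 0.29). On d 2 it was again lower in 5 of 6, with -0.54 (SE 0.26), or -0.61 without the library labelled calf 1755. All these changes share the d 0 libraries of their group.

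In order of the mean, GZMA was highest in control calves on d 0, then in control calves on d 2, weaned calves on d 1, weaned calves on d 0, control calves on d 1, weaned calves on d 2, weaned calves on d 7 and control calves on d 7. Each neighbour in this order overlapped the next. With the means of the 8 groups taken out, differences between calves made up 34.8% of the remaining spread of GZMA. The median of that share was 42.9% over the 10258 genes at 5 CPM or more.

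TRAT1, the adaptor of the T cell receptor, had a broad spread among control calves early on. On d 0 the control calves spanned 16.4 to 52.5 CPM, with a median of 30.7 and a mean of 32.1 ± 16.5 (SD, n = 6). On d 1 they spanned 12.2 to 72.7 CPM, with a median of 18.7 and a mean of 32.4 ± 26.0 (SD, n = 6). Calves 1755, 1759 and 1763 stood at 43.0 CPM or more on d 0 and the other 3 at 18.3 CPM or less, and calves 1755 and 1759 were again the highest on d 1. On d 2 the control calves drew together at 16.1 to 23.4 CPM, with a median of 22.7 and a mean of 21.5 ± 2.80 (SD, n = 6). On d 7 they spanned 10.6 to 24.1 CPM, with a median of 12.9 and a mean of 15.0 ± 5.24 (SD, n = 6). The calves that were high on d 0 were no longer apart from the others on d 2 and d 7, and the ranges of d 0 and d 7 overlapped.

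In weaned calves on d 0, TRAT1 spanned 15.9 to 48.7 CPM, with a median of 27.2 and a mean of 29.4 ± 11.5 (SD, n = 6). On d 1 the weaned calves spanned 24.9 to 78.6 CPM, with a median of 40.6 and a mean of 43.3 ± 20.4 (SD, n = 6). On d 2 they spanned 25.9 to 82.6 CPM, with a median of 31.4 and a mean of 39.6 ± 21.6 (SD, n = 6). On d 2 the lowest weaned calf was above the highest control calf, so that the groups did not overlap, while on d 0 and d 1 they did. On d 7 the weaned calves spanned 13.5 to 102 CPM, with a median of 25.9 and a mean of 37.2 ± 32.4 (SD, n = 6). The value of 102 CPM is of the library labelled calf 1758, without which the mean was 24.3 ± 8.27 CPM (SD, n = 5). Weaned and control calves overlapped on d 7 with or without it.

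The separation of TRAT1 on d 2 was tested, since no library of that day took part in the choice of the gene. The mean log2 difference, weaned minus control, was 0.74 (SE 0.26, n = 6 and 6, exact permutation p = 0.00216), where the p is the smallest that the test can give. It was the only 1 with a p under 0.05 among the 15 exact tests of the 5 genes that used libraries which did not choose them and could reach 0.05. In the same comparison 20 of 13949 genes were higher in weaned calves with no overlap, which is 0.143%. The edgeR quasi-likelihood fit gave TRAT1 a log2 difference of 0.88 (SE 0.26) and a Benjamini-Hochberg adjusted p of 0.950 over all genes, higher in 6 of 6 weaned calves than in any control calf, and so did not call it. Without the library labelled calf 1755 on d 2 the exact test gave 0.76 (p = 0.00649), and leaving out each calf in turn gave an edgeR log2 difference of 0.54, without calf 1758, to 0.99. In each of the 4 flowcells that held both groups on d 2 the weaned calf was higher, with 30.1 against 20.8, 40.0 against 22.2, 26.5 against 23.1 and 25.9 against 23.2 CPM, a mean log2 difference of 0.42. With flowcell as a block in the edgeR fit the log2 difference was 0.44 and the adjusted p 1. TRAT1 also stood on the study's list of genes with altered splicing on d 2, made from these libraries, so its d 2 values are not wholly independent of earlier results.

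On d 1 the log2 difference of TRAT1 between weaned and control calves was 0.63 (SE 0.51, exact permutation p = 0.234, n = 6 and 6). Within weaned calves TRAT1 was higher on d 1 than on d 0 in 4 of 6, with a mean log2 change of 0.51 (SE 0.24, exact permutation p = 0.125). Without the library labelled calf 1758 on d 0 that change was 0.48 (exact permutation p = 0.25, n = 5). By d 2 the change in weaned calves was 0.38 (SE 0.40, exact permutation p = 0.5625, n = 6), and without the same library it was -0.010 (exact permutation p = 0.9375, n = 5). None of these differences passed 0.05, and with n = 5 the test within calves could not have done so. The control libraries of d 0 took part in the choice of TRAT1, so what rests on them is given with no test. On d 0 the difference between weaned and control calves was -0.04 (SE 0.38), and 0.11 without the library labelled calf 1758. In control calves the change to d 1 was -0.17 (SE 0.34), against 0.02 (SE 0.47) in the edgeR fit. The change to d 2 was -0.40 (SE 0.30), and -0.26 without the library labelled calf 1755 on d 2.

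On d 7, in the contrasts that chose the gene, TRAT1 in control calves stood at a log2 change of -1.04 (SE 0.31) from d 0, lower in 4 of 6 calves. With calf as a block in the fit the change was -0.95, under 2-fold, and TRAT1 was no longer called. Weaned calves stood above control calves on d 7 by a log2 difference of 1.30 (SE 0.40), which was 0.71 without the libraries labelled 1758 and 1770. Weaned calves on d 7 stood at a log2 change of 0.33 (SE 0.42) from d 0, given with no test, and lower in 4 of 6 calves as labelled or 3 of 6 with the d 7 labels 1758 and 1770 exchanged, and at -0.37 without the libraries that resembled another calf. These 3 comparisons share d 0 and d 7 libraries with one another.

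By mean level, TRAT1 was highest in weaned calves on d 1, then in weaned calves on d 2, weaned calves on d 7, control calves on d 1, control calves on d 0, weaned calves on d 0, control calves on d 2 and control calves on d 7. Each group overlapped its neighbour in that order. Without the library labelled calf 1758, the mean of weaned calves on d 7 was 24.3 CPM. That lies below the means of control calves on d 1 and d 0 and of weaned calves on d 0. With the means of the 8 groups taken out, differences between calves made up 27.4% of the remaining spread of TRAT1.

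CCL4, a chemokine that attracts monocytes and T cells, had control means that lay closer together over the days than the calves did within a day. In control calves on d 0 it spanned 11.5 to 33.9 CPM, with a median of 18.8 and a mean of 21.1 ± 9.98 (SD, n = 6). The later control groups lay over the same range, with means of 20.6 ± 6.95, 21.8 ± 7.94 and 23.4 ± 7.40 CPM on d 1, 2 and 7 (SD, n = 6 each). Their lowest, median and highest levels were 11.2, 23.4 and 27.3 CPM on d 1, 9.50, 23.7 and 32.6 CPM on d 2, and 14.6, 21.9 and 34.8 CPM on d 7. No control group stood apart from another.

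Among weaned calves CCL4 on d 0 spanned 11.3 to 41.2 CPM, with a median of 19.1 and a mean of 21.7 ± 10.8 (SD, n = 6). On d 1 it spanned 11.995 to 54.2 CPM, with a median of 14.3 and a mean of 20.8 ± 16.5 (SD, n = 6). On d 2 it spanned 6.37 to 39.3 CPM, with a median of 16.4 and a mean of 17.8 ± 11.4 (SD, n = 6). Calf 1769 was the highest weaned calf on all 4 days, and the other 5 lay within or below the range of the control calves. On d 7 the weaned calves spanned 8.59 to 23.0 CPM, with a median of 15.4 and a mean of 15.2 ± 6.02 (SD, n = 6). The weaned calves on d 7 overlapped the lower end of the control calves' range.

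CCL4 was lower on d 7 than on d 0 in 5 of 6 weaned calves, or in 4 of 6 with the d 7 labels 1758 and 1770 exchanged, a log2 change of -0.53 (SE 0.33) in the edgeR fit, in the contrast that chose it. On d 7 weaned calves stood below control calves by a log2 difference of -0.61 (SE 0.29), which shares the weaned d 7 libraries and was not tested. Without the libraries labelled 1758 and 1770 on d 7 that difference was -0.63, and without the libraries that resembled another calf the change in weaned calves was also -0.63. The weaned libraries of d 0 and d 7 chose CCL4, so tests were kept to the others. Between weaned and control calves the log2 difference was -0.14 on d 1 (SE 0.39, exact permutation p = 0.766, n = 6 and 6). On d 2 it was -0.39 (SE 0.41, exact permutation p = 0.368, n = 6 and 6), and -0.45 without the library labelled calf 1755 (exact permutation p = 0.344). Within control calves the change from d 0 was 0.02 on d 1 (SE 0.23, exact permutation p = 1, n = 6), lower in 5 of 6 calves. Calf 1763 alone was higher, at 25.8 against 11.5 CPM, and without it the edgeR log2 change was -0.24 in place of -0.05. On d 2 the change was 0.08 (SE 0.22, exact permutation p = 0.844, n = 6), and 0.04 without the library labelled calf 1755 (exact permutation p = 0.9375, n = 5). Weaned calves, described with no test, were lower on d 2 than on d 0 in 5 of 6, by a mean log2 change of -0.35 (SE 0.22) that was -0.20 without the library labelled calf 1758 on d 0. With the means of the 8 groups taken out, differences between calves made up 77.2% of the remaining spread of CCL4, more than for GZMA or TRAT1. That share holds no difference between days or treatments. In order of the mean, control calves on d 7 were highest, followed by control calves on d 2, weaned calves on d 0, control calves on d 0, weaned calves on d 1, control calves on d 1, weaned calves on d 2 and weaned calves on d 7, and each neighbour overlapped the next.

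Over the 48 libraries, which come 4 from a calf and share their depth, the log2 levels of GZMA and TRAT1 had a Pearson correlation of 0.52 and a Spearman correlation of 0.47. GZMA and CCL4 had 0.30 and 0.25, and TRAT1 and CCL4 had -0.20 and -0.22, as descriptions with no test. About the means of the 8 groups the Pearson values of these pairs, in the same order, were 0.57, 0.36 and -0.09. So GZMA and TRAT1 were high and low in the same libraries more than either was with CCL4. Nothing is read from that, since the study listed GZMA and TRAT1 for the same comparisons of these libraries and CCL4 for another.

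XCL2, a chemokine of activated killer cells that attracts cross-presenting dendritic cells, was at the edge of detection. It had counts in 17 of 48 libraries and never more than 3 in any. The 6 control libraries together held 2 counts before housing, then 1, 3 and 0 on d 1, 2 and 7. The weaned libraries held 1 count before housing, then 9, 5 and 2 on the later days. The 9 counts of d 1 came from 5 of the 6 weaned calves, so no single calf carried them. These d 1 counts lie in the contrasts that chose the gene and are given with no ratio. Where 0 counts were seen, in control calves on d 7, the depth allows up to 0.162 counts per 1000000 over the group, before TMM scaling. On d 2, whose libraries did not choose XCL2, the test between groups gave an exact permutation p of 0.448 (n = 6 and 6), with no difference detectable at this depth. The other 3 comparisons left had too few libraries with counts for the exact test to reach 0.05, and are not tested.

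IFNG, the macrophage-activating cytokine of the set, had counts in 21 of 48 libraries and was above 3 counts in 2 of them. Control calves together held 10 counts before housing, then 6, 5 and 0 on d 1, 2 and 7. Weaned calves held 8 counts before housing, then 4, 4 and 1. In both groups the counts were highest before housing and lowest on d 7, and on d 0 a single calf carried most of them. Calf 1759 held 6 of the 10 control counts and calf 1769 held 6 of the 8 weaned counts on d 0. The d 0 and d 7 libraries of both groups chose IFNG, so these counts are given with no ratio or test. The 2 exact permutation tests on other libraries, between the groups on d 1 and d 2, gave p of 0.470 and 0.491, with no difference detectable at this depth.

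**Figure D2:**
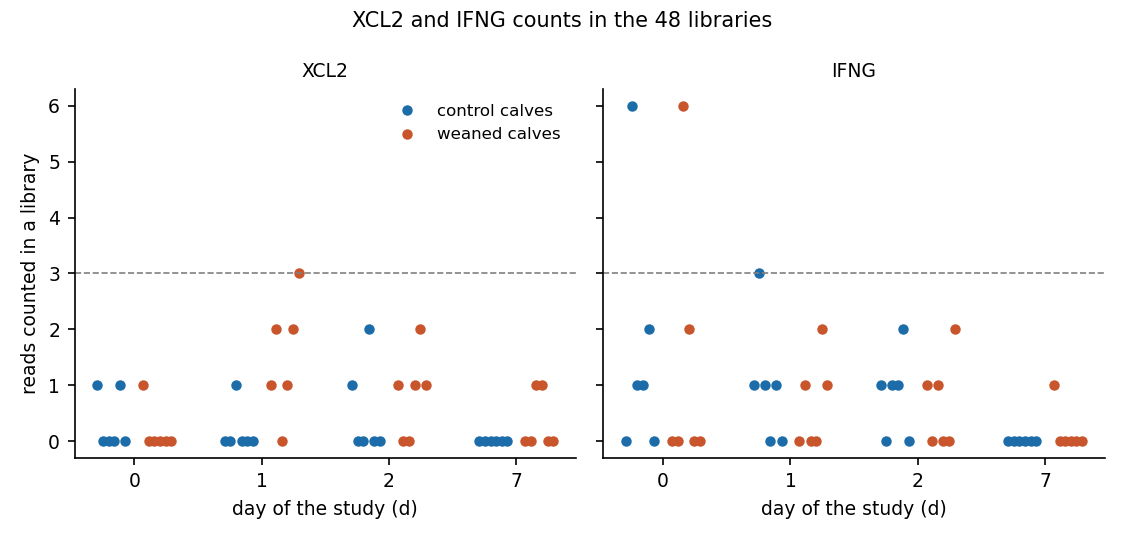
Raw counts of XCL2 and IFNG (vertical axis, linear) in each of the 48 libraries on d 0, 1, 2 and 7 (horizontal axes), with points for control and weaned calves and a dashed line at the floor of 3 counts. XCL2 never passes the line, and IFNG passes it in 2 libraries of d 0, with 6 counts each.

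In 9 of the 10 comparisons the edgeR quasi-likelihood test with Benjamini-Hochberg adjustment called 0 genes (0% of those tested), the 5 genes included. Between weaned and control calves the genes with an unadjusted p under 0.05 were 867, 424, 470 and 3550 on d 0, 1, 2 and 7, and DESeq2 called 0, 0, 0 and 28. Within weaned calves they were 1454, 295 and 373 on d 1, 2 and 7, and DESeq2 called 1, 0 and 1. Within control calves they were 107 on d 1 and 705 on d 2, where DESeq2 called 0 and 0, against 5548 on d 7, where edgeR called 515 and DESeq2 579. Without calf 1809 edgeR called 1136 genes between weaned and control calves on d 7.

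Genes that work beside these 5 were taken from 7 lists, on the T cell receptor and co-stimulation, the cytotoxic granule, natural killer cell receptors, the granzyme A target complex, inducers of IFNG, the IFNG receptor and its targets, and chemokines with their receptors. Beside the 5, 14 of the listed genes had a symbol, and 12 of these were above 3 counts in most libraries. CD160, a receptor of killer cells, and CCL2, a chemokine, had 38 and 48 counts in all and are left out of the counts below. All 14 carried a symbol because the study had listed them as changed on these libraries in at least 1 comparison, so their counts are not independent evidence of a direction. The genes below are therefore described with no p where the study listed them for the same comparison or for one that shares a group of libraries with it.

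In control calves on d 7 against d 0, 10 of the 12 genes were lower and 2 higher, with a median log2 change of -0.89 against 0.05 over all genes tested. The edgeR test called 3 of them, all lower, and 8 had an unadjusted p under 0.05, all lower, a mark that 21.8% of all genes passed in that direction. Nothing is read from these counts, since 4 of the 12, CTLA4, KLRD1, CXCL10 and CD274, were listed for this contrast and 10 for it or for one that shares its libraries. KLRD1, which forms a receptor of natural killer cells with NKG2 proteins, stood at 6.94 ± 4.54 CPM on d 0 and 2.07 ± 0.751 CPM on d 7 (SD, n = 6). Its log2 change was -1.73 (SE 0.42), lower in 5 of 6 calves. CXCL10, a chemokine induced by interferon gamma, was at 17.8 ± 9.72 and 5.85 ± 2.89 CPM (SD, n = 6). Its log2 change was -1.59 (SE 0.42), lower in 6 of 6 calves. CD274, the ligand that restrains T cells through PD-1, was at 24.3 ± 21.7 and 8.67 ± 4.51 CPM (SD, n = 6), the former 15.8 ± 6.80 without calf 1803 (SD, n = 5). Its log2 change was -1.44 (SE 0.44), lower in 5 of 6 calves. These are the 3 genes called, all of them listed for this contrast. Without calf 1755, 1759 or 1763, each left out alone, 0 of the 12 were called, and with another calf left out 4 or 5 were. In the fit of all 48 libraries 0 of the 12 were called, with 1 gene called among all genes tested, so the calls above and those of BUB1B and GATA1 given below were lost in that fit, while DESeq2 and the fit with calf as a block each called 3 of the 12.

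JAK2, a kinase of the interferon gamma receptor, had a log2 change of -0.92 (SE 0.27, edgeR Benjamini-Hochberg adjusted p = 0.0329), lower in 5 of 6 control calves and under 2-fold, and it was listed for weaned calves on d 7 against d 0 only. In this contrast 21.8% of all genes were lower with an unadjusted p under 0.05. The JAK2 mean was 53.7 CPM on d 0, or 46.2 CPM without calf 1755, and 27.5 CPM on d 7. No adjusted p of JAK2 without that calf is given. CD226, an activating receptor of killer cells, had -0.81 (SE 0.27), lower in 6 of 6 and under 2-fold. The co-stimulatory receptors CTLA4, which restrains T cells, and ICOS, which helps them, had log2 changes of -1.44 (SE 0.55) and -0.93 (SE 0.33), neither called. KLRK1, the receptor NKG2D, had -0.86 (SE 0.35), and IL18, which induces IFNG, had -0.84 (SE 0.41), neither called. SET, a target of granzyme A, had -0.75 (SE 0.45) and was not called. IL12B and IL15RA, which act upstream of IFNG, were the 2 genes that were not lower, at 0.11 (SE 0.38) and 0.09 (SE 0.36). IL15RA, like JAK2, was listed for no comparison that shares these libraries, and its edgeR Benjamini-Hochberg adjusted p was 0.860.

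Between weaned and control calves on d 7, 11 of the 12 genes were higher in the weaned group, where the median log2 difference was 1.03 against 0.03 over all genes, and CXCL10 was the exception at -0.23 (SE 0.41). The edgeR test called 0 of the 12, as it called 0 of all genes, and 9 had an unadjusted p under 0.05, a mark that 17.6% of all genes passed in that direction. Nothing is read from these counts either, since the study had listed 9 of the 12 for this contrast. Without the libraries labelled 1758 and 1770 on d 7, 11 were still higher, the median was 0.62 and 6 had an unadjusted p under 0.05. Without calf 1809, 7 of the 12 genes were called, among the 1136 genes called in that fit. In weaned calves on d 7 against d 0, 10 of the 12 were higher with a median of 0.40, and without the libraries that resembled another calf 6 were higher and the median was 0.02. The edgeR test called 0 of the 12 there and 0 had an unadjusted p under 0.05. The 3 comparisons share the d 7 or d 0 libraries of a group, so their directions are not independent.

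On the earlier days edgeR called 0 of the 12 genes in any comparison. The study had listed 3 of the 12 for weaned calves on d 2 against d 0, 1 for these calves on d 1, and 1 each for d 2 between groups and within control calves. Between weaned and control calves 10 were lower on d 0 in the weaned group, the median log2 difference being -0.33. On d 1, 8 were higher in the weaned group (median 0.18), and on d 2, 11 were higher (median 0.44). In weaned calves 9 were higher on d 1 than on d 0, with a median of 0.33. Without the library labelled calf 1758 on d 0, 8 were higher on d 1 (median 0.20). On d 2, 11 were higher than on d 0, with a median of 0.56. Without that library 10 were higher on d 2 (median 0.43), and without calf 1758 on both days 8 were higher (median 0.26). In control calves 9 were lower on d 1 and 7 on d 2, with medians of -0.12 and -0.13, the latter -0.18 without the library labelled calf 1755 on d 2. Without the library labelled calf 1758 on d 0, 8 of the 12 were lower in the weaned group on that day (median -0.26). Between the groups on d 2 the median was 0.17 without calf 1758 and 0.50 without the library labelled calf 1755, with 11 higher in each case. Over all genes the medians of these comparisons lay from -0.01 to 0.03, and no direction of the 12 genes on the earlier days was tested.

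**Figure D3:**
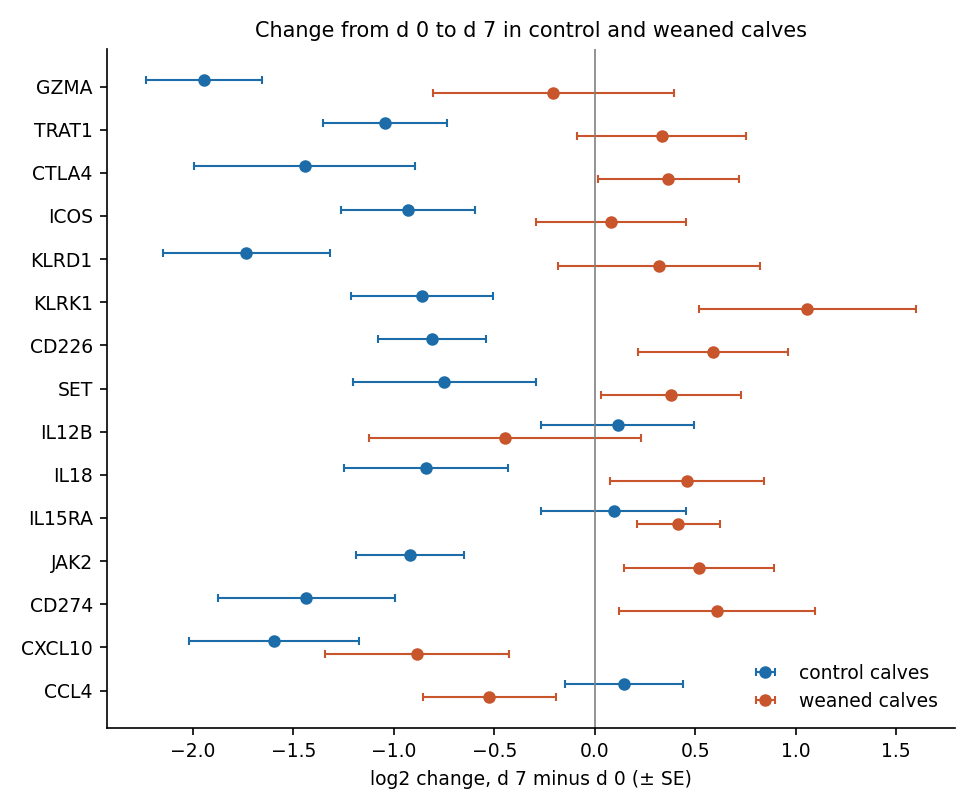
Log2 change from d 0 to d 7 in the edgeR fit, with its SE as bars (horizontal axis), for GZMA, TRAT1, CCL4 and the 12 other genes above the floor (vertical axis), in 6 control and 6 weaned calves. Control calves lie left of 0 for GZMA, TRAT1 and 10 of the 12, and weaned calves lie left of 0 for GZMA and right of 0 for TRAT1 and 10 of the 12, with all libraries included.

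Markers of other white cells are given for the same days, as a description. The neutrophil granule gene PGLYRP1, with a symbol as 1 of 14 neutrophil markers, was at 7.68 ± 8.91 CPM on d 0 and 16.4 ± 8.13 CPM on d 7 in control calves (SD, n = 6), higher in 6 of 6. In weaned calves it was at 7.56 ± 3.504 and 7.47 ± 5.51 CPM (SD, n = 6). Calf 1802 held 54.1% of the control counts on d 0, and without it the mean there was 4.12 ± 2.15 CPM (SD, n = 5). PGLYRP1 was called in neither group, and whether the groups differ in their change was not tested. Of 8 eosinophil markers 3 had a symbol, ALOX15, the most abundant, GATA1 and IL5RA. Their sum was 262 ± 107 CPM on d 0 and 385 ± 160 CPM on d 7 in control calves (SD, n = 6). In weaned calves it was 215 ± 66.4 and 169 ± 60.3 CPM (SD, n = 6). Without the highest control calf of each day, the control sum was 230 ± 81.9 CPM on d 0 and 332 ± 105 CPM on d 7 (SD, n = 5 each). GATA1, a transcription factor of eosinophils, red cells and platelets, had a log2 change of 1.10 (SE 0.35) on d 7 in control calves, higher in 4 of 6. Its control mean on d 7 was 58.2 CPM, or 41.9 CPM without calf 1802. On d 0 it was 27.7 CPM, or 24.1 CPM without calf 1755. GATA1 was the only 1 of these markers called, in a contrast for which the study had listed it, so nothing is read from the call. IL5RA, the interleukin 5 receptor of eosinophils, had a mean of 13.3 against 16.5 CPM, a log2 change of -0.27 (SE 0.58), lower in 3 of 6 control calves and not called. Without the highest calf of each day, these means were 8.17 and 10.4 CPM (n = 5 each).

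Of 10 red cell markers 3 had a symbol, HBB, the most abundant, ALAS2 and SLC4A1, and their sum was 8.27 ± 3.20 CPM on d 0 and 18.0 ± 15.6 CPM on d 7 in control calves (SD, n = 6). Calf 1789 stood at 48.6 CPM on d 7, and without it the mean was 11.8 ± 4.80 CPM (SD, n = 5). In weaned calves it was 13.96 ± 3.72 and 7.78 ± 2.54 CPM (SD, n = 6). Of 10 platelet markers PPBP had a symbol, at 2.78 ± 1.83 and 3.12 ± 3.38 CPM in control and 2.72 ± 1.68 and 1.81 ± 0.760 CPM in weaned calves on d 0 and d 7 (SD, n = 6), the control mean of d 7 being 1.79 without calf 1789. Of 12 monocyte markers MARCO had a symbol, with 95 counts in all, of which calf 1769 held 31 of the 32 in weaned calves on d 0, so no level is compared, and none of 12 B cell markers had one. In control calves, then, PGLYRP1, ALOX15, GATA1 and HBB had higher means on d 7 than on d 0 while IL5RA, GZMA, TRAT1 and KLRD1 had lower ones. The study had listed all of these but ALOX15 and IL5RA for this contrast, and ALOX15 for the d 7 contrast of the groups. Their part in the result was not tested.

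Genes of cell division, in which BUB1B guards chromosome separation and CDK1 drives entry into mitosis, were 2 of 22 listed genes with a symbol. In control calves on d 7 against d 0, BUB1B had a log2 change of -1.15 (SE 0.32), lower in 5 of 6 calves, and was called. CDK1 had -1.36 (SE 0.50), lower in 5 of 6 calves, and was not called. The study had listed both for this contrast and for the next, so these are descriptions with no p. Between weaned and control calves on d 7 the log2 differences were 0.98 (SE 0.43) for BUB1B and 1.26 (SE 0.57) for CDK1, with 0 called. The library labelled calf 1758 was the highest weaned library of d 7 in both. Without it the weaned means were 7.82 CPM for BUB1B and 4.82 CPM for CDK1, in place of 10.7 and 6.34 CPM. The control means were 5.28 and 2.45 CPM.

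For GZMA, TRAT1 and CCL4 the 5 genes with the most similar log2 levels over the 48 libraries were looked for among 273 genes with a symbol and a mean of at least 5 CPM, all of them listed by the study on these libraries. For GZMA they were MCM10 at a Pearson correlation of 0.70, NCAPG at 0.67, BUB1B at 0.65, C14orf106 at 0.64 and CASC5 at 0.64. For TRAT1 they were LPAR6 at 0.93, BDP1 at 0.92, SMC4 at 0.92, PIK3C2A at 0.92 and PLDN at 0.91. For CCL4 they were TAC3 at 0.65, TGM2 at 0.54, CDKN1C at 0.49, CLU at 0.48 and HBB at 0.46. Among these candidates TRAT1 thus had much closer neighbours than GZMA or CCL4, and it also had the most counts of these genes. Nothing is read from that order, since the study's choice of the candidates enters it. The libraries come 4 from a calf and share depth, so the values are descriptions with no p.

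In a bovine reference annotation GZMA lies next to another gene named as a granzyme A, and XCL2 lies next to XCL1. Reads that aligned to several places were dropped by the authors, so counts of GZMA and XCL2 may leave out sequence shared with a neighbouring copy, and by how much was not tested.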

How the data were processed

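RNA of total leukocytes from 12 calves was sequenced in 48 libraries. The authors aligned the reads with Bowtie 0.12.7 to the bovine genome Btau4.0 without mismatches, dropped reads that aligned to several places, kept 1 read per position, and counted genes of an Ensembl annotation with HTSeq 0.4.6p2. The deposited values are raw counts (unit: count), and the strand counted is not stated.

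Counts were analysed in R 4.3.3 with edgeR 4.0.16 (TMM scaling, quasi-likelihood F-test, genes with at least 10 counts over the 12 libraries compared), in fits over all genes, with Benjamini-Hochberg adjustment. A call needed both an adjusted p under 0.05 and 2-fold or more between groups. The 5 genes were tested on log2(CPM + 1) by exact two-sided permutation over the 924 arrangements of calves, or over the 64 sign changes within calves. An adjustment over the 5 genes alone was left out, because the genes and the lists were chosen with earlier results of these data known. For the 5 genes a p is printed only for tests on libraries that did not choose the gene, 18 of 46. Of these it is printed only for the 15 that could reach 0.05 with all calves. In all but the CCL4 tests within control calves, other libraries of the same calves chose the gene. Those p are therefore not fully independent of the choice. The same tests are also given without a library, and within 5 calves they could not reach 0.05, so those p are descriptions. The floor of 3 counts covers counting error only.

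Pairing was checked: the same calf number in the labels was taken as the same animal, and the mean correlation across genes of a calf's deviations from its group on d 0 with those on a later day was 0.48, 0.26 and 0.24 in weaned and 0.50, 0.34 and 0.21 in control calves on d 1, 2 and 7.

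From each of 16 lists, the 4 genes with a symbol and the most counts are named, and every listed gene that was called. The 5 genes most like GZMA, TRAT1 and CCL4 are named by Pearson correlation. Symbols came from the study's ortholog pairs, and 29 genes of 231 list entries matched. Alternatives were RLE scaling, DESeq2 1.42.0, no filter and the filterByExpr filter, 1 fit over all 48 libraries, leaving out each calf, calf or flowcell as a block, and pseudocounts of 0.25 and 5. Chosen after the data were seen were fits without the 4 libraries that resembled another calf and, for the other lymphocyte genes and the mean levels of d 7, leaving out calf 1758, the means without the highest library, and the exchange of 2 labels. The method was tested on simulated data. Splicing values were left out, since the deposited table has counts of whole genes.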

Additional observations from a re-analysis of the deposited data

Results flagged for a closer look

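In 24 groups of 6 libraries, 3 genes by 8 groups, 6 had a library far from the other 5 by the gap to its neighbour relative to the range of the group. About 1 in 20 groups of independent, normally distributed values would pass this mark. It was applied to CPM with no log scale, and the groups share calves and libraries, so that share need not hold here. GZMA and TRAT1 in weaned calves on d 7 were far above the others in the library labelled calf 1758, at 30.8 and 102 CPM, and that library's profile was nearest to another calf. TRAT1 in weaned calves on d 2 was far above the others in calf 1758, at 82.6 CPM, in a library nearest to its own calf. TRAT1 in control calves on d 2 was far below the others in calf 1802, at 16.1 CPM. CCL4 in weaned calves was far above the others in calf 1769 on d 1, at 54.2 CPM, and on d 2, at 39.3 CPM.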

How the results depend on the processing

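Of 453 recomputed log2 changes of GZMA, TRAT1 and CCL4 under the alternatives, 412 kept their sign and 41 turned it. XCL2 and IFNG changes were not recomputed, because both genes are at the floor. Where a count or sign moved, the cause was not tested.

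Genes called between weaned and control calves on d 7 were 0 by edgeR, 28 by DESeq2, and 0 to 1136 with each calf left out, 1136 without calf 1809. Called within weaned calves were 1 by DESeq2 and 2 with calf as replicate block on d 1, and 1 by DESeq2 on d 7, against 0 by edgeR. In control calves on d 7, 515 by edgeR became 1 in the fit of all 48 libraries, 537 with calf as replicate block, and 0 to 1086 with each calf left out, 0 without calf 1755, 1759 or 1763 and 790 without calf 1802. The replicate block ended the call of TRAT1 there (-0.95) and changed no other call of the 5 genes.

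In the fit of all 48 libraries neither GZMA nor TRAT1 was called in control calves on d 7. TRAT1 was called between weaned and control calves on d 7 without calf 1809.

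Without the libraries that resemble another calf, a choice made after the data were seen, the sign turned for TRAT1 between groups on d 0 (0.01 against -0.10), for GZMA between groups on d 7 (-0.17 against 1.00), and for TRAT1 in weaned calves on d 7 (-0.37 against 0.33). In the permutation tests it turned for TRAT1 between groups on d 0 (0.11 against -0.04) and in weaned calves on d 2 (-0.010 against 0.38). With flowcell as a block CCL4 turned between groups on d 0 (-0.30 against 0.05) and d 2 (0.016 against -0.28). With calf as a block TRAT1 in control calves on d 1 was -0.12 against 0.02. CCL4 between groups on d 1 was -0.0083 and became 0.0071 with RLE, 0.0060 with DESeq2, 0.0015 with no filter, 0.011 with filterByExpr and 0.0063 in the fit of all 48 libraries. With a pseudocount of 5 GZMA between groups on d 1 was 0.045 against -0.02.

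With each calf left out, ranges that crossed 0 between groups were -0.31 to 0.080 (TRAT1, d 0), -0.25 to 0.24 (CCL4, d 0), -0.25 to 0.49 (GZMA, d 1) and -0.55 to 0.11 (CCL4, d 1). In weaned calves they were -0.34 to 0.0096 (CCL4, d 1), -0.30 to 0.025 (GZMA, d 2), -0.054 to 0.64 (TRAT1, d 2), -1.10 to 0.31 (GZMA, d 7) and -0.40 to 0.61 (TRAT1, d 7). In control calves they were -0.20 to 0.27 (TRAT1, d 1), -0.24 to 0.10 (CCL4, d 1) and -0.14 to 0.14 (CCL4, d 2). With Spearman in place of Pearson correlation 3 of the 5 genes most like GZMA were kept.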
